A study of Bos taurus with 12 samples.

Results

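The genes described here encode enzymes of lower glycolysis, from glucose-6-phosphate isomerization to pyruvate but without phosphofructokinase, and the A and B subunits of lactate dehydrogenase. The 10 genes were chosen by function (GPI, ALDOA, TPI1, GAPDH, PGK1, PGAM1, ENO1, PKM, LDHA and LDHB) among 12639 genes that could be named on the array. They were represented by 40 of the 43653 probes, with 3 to 8 probes per gene. Mammary RNA was measured in 12 multiparous Holstein cows on one-color bovine arrays from Agilent, 1 for each cow. The 6 CONT cows had free access to a lactation diet, and the 6 REST cows received for 4 days a ration with 48% barley straw (dry matter basis), which began at 24 ± 3 days in milk. Lipopolysaccharide (LPS, 50 µg), a cell wall component of Gram-negative bacteria, was injected into a healthy rear gland of every cow on the third day of the diets, and the biopsy was taken 24 h later. All 12 biopsies were thus from a challenged gland, and unchallenged tissue was not analysed here.

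Glycolysis converts glucose to pyruvate in the cytosol and yields ATP and NADH. The steps below the aldolase reaction are common to all tissues, but several are catalyzed by isozymes that differ between cell types. Lactate dehydrogenase is a tetramer of A and B subunits, and tetramers rich in the A subunit are typical of cells that release lactate. In the lactating gland, much of the glucose taken up is used for lactose synthesis and does not enter this pathway, whereas activated neutrophils and macrophages, which enter the gland after LPS, depend largely on glycolysis. A biopsy holds several cell types, and in such bulk RNA fewer cells of a type and less RNA per cell cannot be told apart.

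Levels are log2 intensities relative to the 75th percentile of each array, and each gene is represented by its brightest probe, by the mean over the 12 arrays. The signal of the 40 member probes was well above background in every cow, and none was saturated. The level of one probe cannot be compared with that of another, so that only differences between cows are described. The arrays came from 3 slides of 4 arrays. On slide 1 were 3 CONT cows and 1 REST cow, on slide 2 the numbers were 1 and 3, and slide 3 was balanced (2 and 2). The 75th percentile was at an intensity of 577 to 1184 in CONT and of 387 to 1074 in REST. All 9 measured genes of the mammary epithelium list, among them the casein genes CSN1S1 and CSN3, were well above background on every array. So were 9082 of the 12639 named genes, and all measured markers of neutrophils, macrophages, fibroblasts and endothelium. These counts therefore do not test the tissue label.

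The first question was whether the restriction changed the expression of these genes after LPS. No difference between REST and CONT was detected for any of the 10 genes, in either direction. With limma and Benjamini-Hochberg adjustment over all probes, 0 of the 40 member probes were below 0.05, and the share over all probes was 0%. Without adjustment, 0 of the 40 were below 0.05, against 2.61% of all probes. The 2 groups overlapped at every one of the 40 probes, and 0.117% of all probes had groups that did not overlap. The adjusted p was 1.00 for each gene (limma). The brightest probe was higher in REST for 3 genes and lower for 7, and the median difference was -0.09 on the log2 scale, against -0.04 over all named genes, of which 43.3% were higher in REST. For every gene the pooled SD within groups was larger than the difference between the groups.

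**Figure D1:**
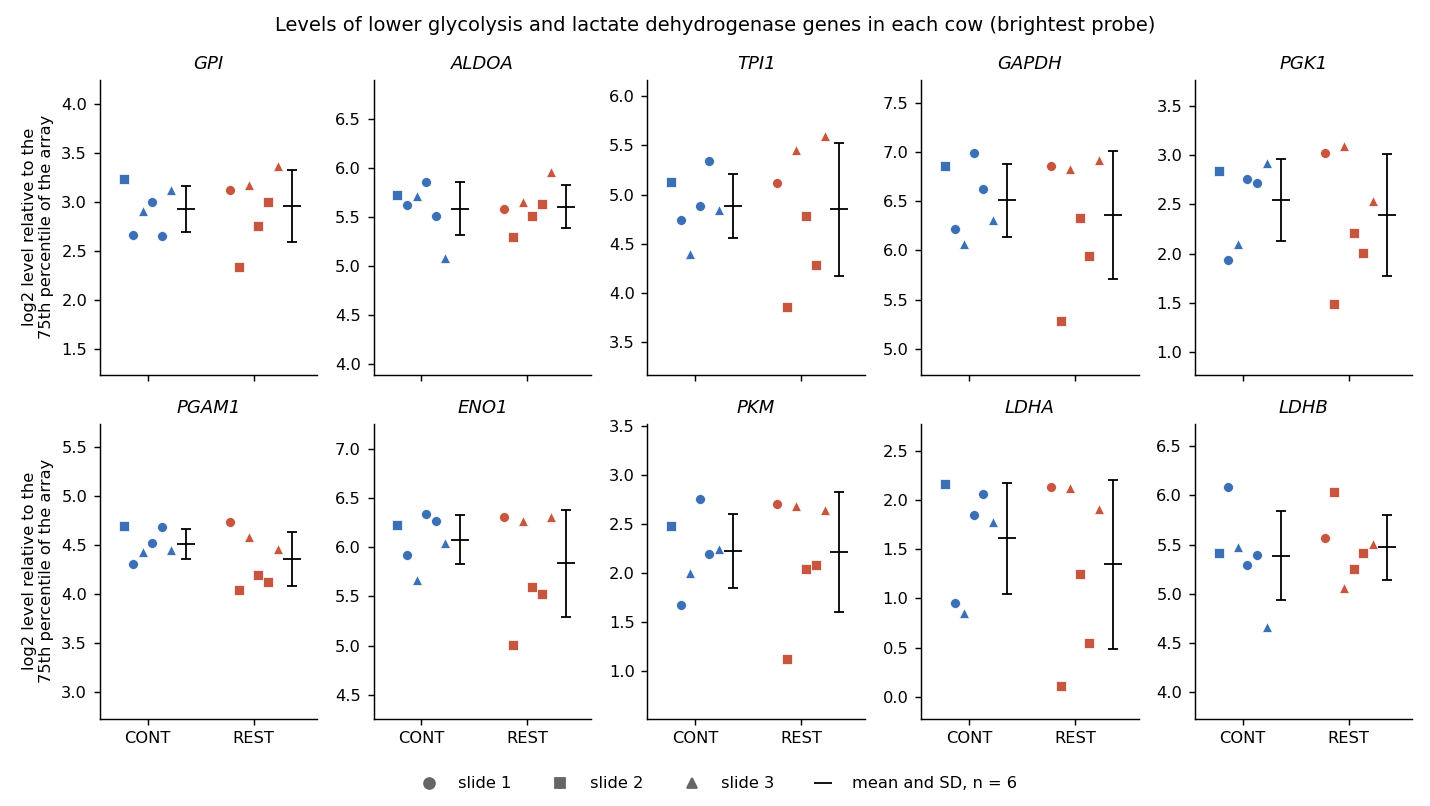
Level of each gene in each cow (y axis, log2 relative to the 75th percentile of the array, with the same span of units in all panels). Points are cows, with the shape giving the slide, and bars are the mean and SD of 6 cows. The groups overlap in all panels, and the lowest point is a REST cow of slide 2 in 8 of the 10.

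GPI interconverts glucose-6-phosphate and fructose-6-phosphate and is the entry to the pathway. Its level ranged from 2.65 to 3.23 in CONT (median 2.95) and from 2.33 to 3.36 in REST (median 3.06). The REST cows spanned the whole range of the CONT cows, and the difference was 0.03 ± 0.19 (SE, 95% confidence interval -0.39 to 0.45). ALDOA, the aldolase of muscle and many other tissues, cleaves fructose-1,6-bisphosphate into 2 trioses. It ranged from 5.09 to 5.86 in CONT (median 5.67) and from 5.30 to 5.96 in REST (median 5.61), with a difference of 0.02 ± 0.17 (-0.34 to 0.38). The CONT cow 8027 was the lowest and the REST cow 1058 the highest.

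TPI1 interconverts the 2 trioses. Its level was between 4.40 and 5.34 in CONT (median 4.86) and between 3.86 and 5.60 in REST (median 4.95). The lowest and the highest of the 12 cows were both REST cows, and the groups differed by -0.04 ± 0.29 (-0.68 to 0.60). GAPDH oxidizes glyceraldehyde-3-phosphate with the reduction of NAD. It ranged from 6.06 to 6.99 in CONT (median 6.47) and from 5.28 to 6.92 in REST (median 6.58). The REST median was above that of CONT while the REST mean was lower (6.36 ± 0.65 against 6.51 ± 0.37, SD, n = 6), and 2 REST cows lay below every CONT cow. The difference was -0.15 ± 0.29 (-0.79 to 0.49). All 8 GAPDH probes had a negative difference, from -0.25 to -0.10.

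PGK1 transfers the phosphate of 1,3-bisphosphoglycerate to ADP, the first step that yields ATP. Its level ranged from 1.94 to 2.92 in CONT (median 2.74) and from 1.49 to 3.09 in REST (median 2.37), and the difference was -0.16 ± 0.29 (-0.79 to 0.48). PGAM1 moves the phosphate from carbon 3 to carbon 2. It had the narrowest range among the cows, from 4.30 to 4.70 in CONT (median 4.48) and from 4.04 to 4.73 in REST (median 4.33). Its difference of -0.16 ± 0.16 had the narrowest interval of those below 0 (-0.50 to 0.18), with 4 of 6 REST cows below the CONT mean. The exact permutation test over the 924 splits of the cows gave p = 0.240 for PGAM1, the lowest of the 10 genes at the brightest probe, where the smallest p possible is 0.00216. The 4 PGAM1 probes did not share a sign, with differences from -0.16 to 0.02. At the other PGAM1 probes the exact permutation p was 0.621 to 0.877.

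ENO1 forms phosphoenolpyruvate. It ranged from 5.67 to 6.34 in CONT (median 6.13) and from 5.003 to 6.31 in REST (median 5.93). The difference was -0.24 ± 0.24 (-0.77 to 0.29), while 3 of the 6 REST cows lay above the CONT mean. Over the 5 ENO1 probes the difference ranged from -0.24 to 0.03. PKM encodes pyruvate kinase M, whose 2 splice forms were not distinguished here. It ranged from 1.68 to 2.76 in CONT (median 2.22) and from 1.13 to 2.71 in REST (median 2.36), and the group means were alike (difference -0.0093 ± 0.28, -0.62 to 0.60). Over the 3 PKM probes the difference ranged from -0.0093 to 0.043.

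LDHA, the subunit typical of lactate-producing tissues, varied most among the cows. Its level ranged from 0.85 to 2.17 in CONT (median 1.81) and from 0.11 to 2.13 in REST (median 1.58). The spread among all cows was 4.15-fold, and the difference between the groups was -0.26 ± 0.39 (-1.11 to 0.58). LDHB, the subunit typical of tissues that oxidize lactate, ranged from 4.66 to 6.09 in CONT (median 5.40) and from 5.06 to 6.03 in REST (median 5.46). Its difference was 0.08 ± 0.23 (-0.42 to 0.59). The intervals of the 10 genes together reached from -1.11 to 0.60, and for LDHA a REST level down to 0.463 times that of CONT lies within the interval.

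**Figure D2:**
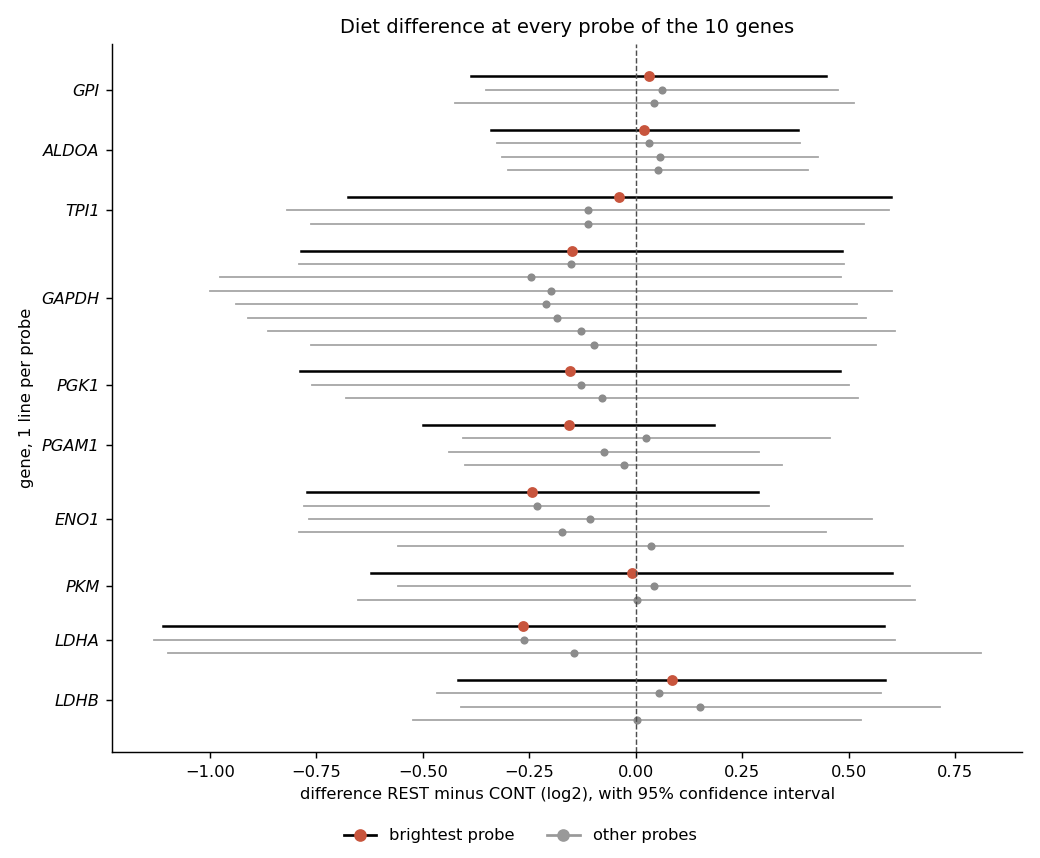
Difference between REST and CONT (x axis, log2) for each of the 40 probes, grouped by gene on the y axis. Points are estimates and lines 95% confidence intervals (limma), with the brightest probe of a gene drawn in color, and every interval includes 0.

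The sign of these differences was not the same on the 3 slides. On slide 2, where 3 of the 4 arrays were REST, 9 of the 10 genes were lower in REST. On slide 1, 2 of the 10 were lower, and on slide 3, 0 of the 10. For LDHA the difference within slides was 0.51 on slide 1, -1.53 on slide 2 and 0.70 on slide 3. With slide as a block, the differences were -0.02 for LDHA, -0.04 for ENO1, 0.05 for GAPDH, 0.16 for TPI1 and 0.15 for PKM, and 7 of the 10 genes were higher in REST. The REST cow 0049, on slide 2, had the lowest level of the 12 cows in 8 of the 10 genes, the exceptions being ALDOA and LDHB. Without this cow the difference was -0.02 for LDHA, -0.08 for ENO1 and -0.09 for PGAM1, the median of the differences was 0.05, and 6 of the 10 genes were higher in REST.

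The balance of both lactate dehydrogenase subunits was taken as the LDHA level minus the LDHB level within each array. Since the subunits were measured by different probes, only its change from cow to cow can be read. It ranged from -5.13 to -2.89 in CONT (median -3.38) and from -5.92 to -2.94 in REST (median -3.79). The means were -3.78 ± 0.89 in CONT and -4.13 ± 1.09 in REST (SD, n = 6), a difference of -0.35 (exact permutation test, two-sided, p = 0.561). With slide as a block the difference was -0.15 (exact permutation within slides, p = 0.865), and without cow 0049 it was 0.01. The balance differed more within each diet than between the diets. It was lowest in REST cow 0049 (-5.92), CONT cow 1076 (-5.13) and REST cow 1015 (-4.87), and highest in CONT cow 8027 (-2.89) and REST cow 1018 (-2.94).

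Within both diets most members were high or low together from cow to cow. In REST cow 1058 all 10 genes were above their own mean, in REST cow 7043 all 10 were below it, and in REST cow 0049 9 of 10 were below it. Among the CONT cows, 9040 and 1024 had 9 genes above the mean, and 1076 and 0015 had 8 below it. Each of TPI1, GAPDH, PGK1, PGAM1, ENO1, PKM and LDHA correlated with the mean of the other 9 genes with r from 0.86 to 0.98 over the 12 cows, and GPI with r = 0.72. ALDOA followed less (r = 0.44). LDHB went the other way (r = -0.50). After removal of the group means, these values ranged from 0.74 to 0.98 for the first 8 genes, and they were 0.45 for ALDOA and -0.49 for LDHB. Without the 2 most distant cows, r was 0.61 to 0.94 for the first 8 genes, 0.30 for ALDOA and -0.26 for LDHB. Over all 12 cows rho was -0.34 for LDHB. All these correlations are given as a description, because the points share the array and its scaling.

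**Figure D3:**
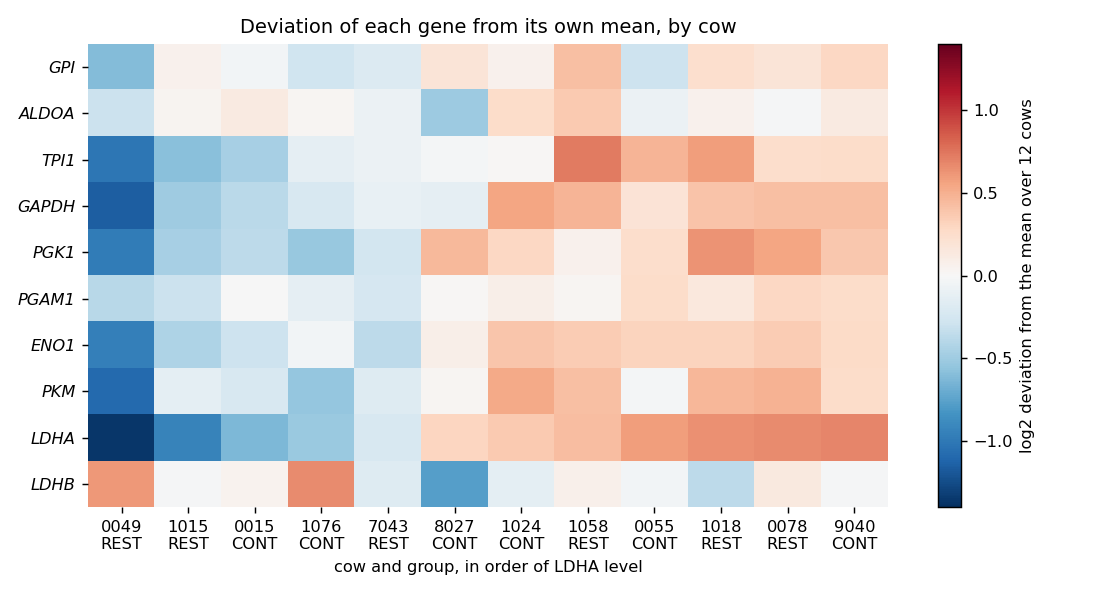
Deviation of each gene from its own mean over the 12 cows (color, log2), with cows on the x axis in order of their LDHA level and genes on the y axis. Cow 0049 is at the low end for LDHA, GAPDH, ENO1 and PKM and high for LDHB, and cows of both diets are found in the lower and in the upper part of the order.

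LDHA, which had the widest range, was then compared with every other gene whose brightest probe was well above background on all arrays (8999 genes). The choice of LDHA was made after its values were seen. Correlations were tested by permutation of the cows (100000 resamples, two-sided), with Benjamini-Hochberg adjustment over the 8999 genes. A total of 6 of the 9 other members had a positive correlation with an adjusted p below 0.05, against 10.6% of all genes. They were PGK1 (r = 0.95, permutation test, adjusted p = 0.00571), ENO1 (r = 0.94, 0.00704), GAPDH (r = 0.93, 0.00461), TPI1 (r = 0.91, 0.00571), PGAM1 (r = 0.91, 0.00760) and PKM (r = 0.86, 0.0120). PGK1 ranked 14 among the 8999 genes by r, ENO1 ranked 30, GAPDH 39, TPI1 72, PGAM1 92 and PKM 253.

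The other 3 members did not pass. GPI had r = 0.67 (permutation test, adjusted p = 0.0789), ALDOA r = 0.26 (0.580) and LDHB r = -0.53 (0.196). LDHB was thus the one member with a negative value, and the negative correlations that passed made up 4.73% of all genes. Spearman's rho was 0.87 for TPI1 and 0.95 for PGAM1 (adjusted permutation p = 0.0472 and 0.0180), and 0.77 to 0.85 for GAPDH, PGK1, ENO1 and PKM, with adjusted permutation p from 0.0527 to 0.0828. Without the 2 cows farthest from the median of LDHA (0049 and 1015), r was 0.80 to 0.92 for the same 6 genes, but none of the 8999 genes then passed. Without cow 0049 alone, GAPDH and PGK1 passed, against 0.60% of all genes, and r was 0.45 for GPI, 0.02 for ALDOA and -0.33 for LDHB. The cows did not fill the range of LDHA evenly, with a gap of 0.52 between cow 7043 (1.25) and cow 8027 (1.78).

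LDHA also followed the brightness of the array. Of 3 array measures compared, the log2 of the 75th percentile intensity had r = 0.71 with LDHA (permutation test, p = 0.00951, adjusted over the 3 measures p = 0.0285) and rho = 0.49 (permutation p = 0.109, adjusted 0.327). Without the 2 arrays of the most distant brightness r was 0.33. The share of probes well above background had r = 0.10 (permutation p = 0.756, adjusted 0.756, rho = 0.27 with p = 0.391, adjusted 0.428), and the negative control signal had r = 0.32 (permutation p = 0.309, adjusted 0.463, rho = 0.25 with p = 0.428, adjusted 0.428). Each without its own 2 most distant arrays, r was 0.71 for the share of probes well above background and 0.07 for the negative control signal. Cow 0049 had the dimmest array, with a 75th percentile of 387. When the linear dependence on brightness was removed from all genes, r with LDHA was 0.90 for PGK1, 0.87 for GAPDH and ENO1, 0.85 for TPI1, 0.82 for PGAM1 and 0.79 for PKM, and 4 of them passed, against 1.7% of all genes with a positive sign. With slide means removed, r was 0.83 to 0.95 and 5 passed, against 2.01% of all genes. With quantile normalization, r of the 6 genes was 0.88 to 0.96, and ALDOA (r = 0.72) and GPI (r = 0.72) passed as well, where the share of all genes also rose, to 12.3%.

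**Figure D4:**
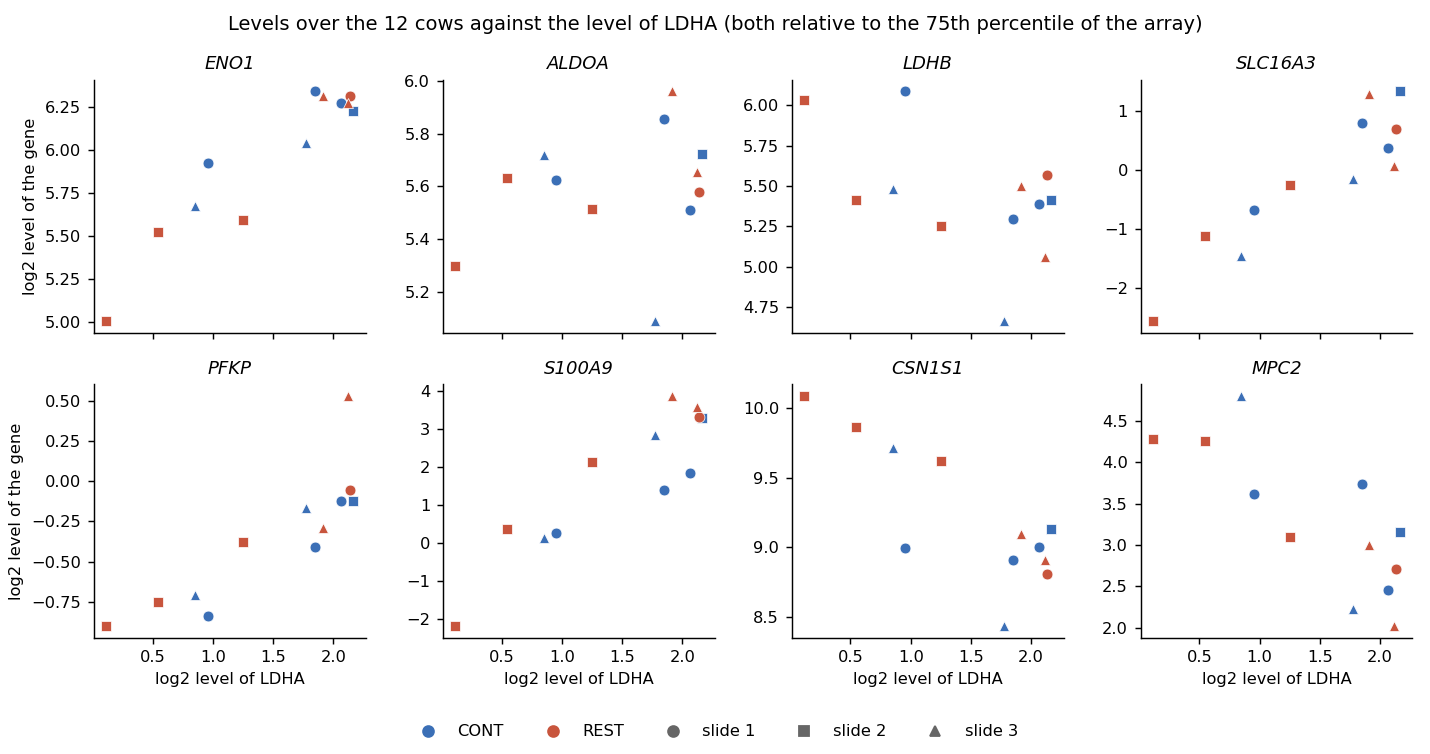
Level of 8 genes (y axes, log2) against the level of LDHA (x axis, log2) in the 12 cows, both relative to the 75th percentile of the array. Colors give the diet and shapes the slide. ENO1, SLC16A3, PFKP and S100A9 increase with LDHA, CSN1S1 and MPC2 have r = -0.81 and -0.79, which did not pass with brightness removed, and the values of ALDOA (r = 0.26) and LDHB (r = -0.53) did not pass the test.

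Genes next to lower glycolysis were examined in 6 lists. Differences between REST and CONT are given first, where 2.64% of the brightest probes of all genes had an unadjusted p below 0.05 (limma) and 0 of the list genes passed the adjusted threshold. Of 11 isozymes, 4 were higher in REST and 7 lower (median -0.05, and 0.14 with slide as a block). Only 5 of the 11 were well above background on every array, and 2 were so on none. GAPDHS, the sperm form of GAPDH, had a difference of -0.23 ± 0.37, and 0.05 with slide as a block. Its probe followed that of GAPDH over the cows (r = 0.98). Whether this probe also binds GAPDH transcripts was not tested. PKLR, the pyruvate kinase of liver and red cells, had a difference of 0.13 ± 0.19. Of 8 genes of upper glycolysis and glucose entry, 5 were higher and 3 lower (median 0.02), with the glucose transporters SLC2A1 (-0.43 ± 0.33) and SLC2A3 (-0.40 ± 0.47) at the largest values. Of 12 genes that handle pyruvate and lactate, 4 were higher and 8 lower (median -0.08). Among them PDHB, the beta subunit of pyruvate dehydrogenase, had -0.22 ± 0.17, and SLC16A3, the monocarboxylate transporter that exports lactate, had -0.35 ± 0.63. For SLC16A3 the difference was 0.53 on slide 1, -2.65 on slide 2 and 1.49 on slide 3, and -0.04 with slide as a block. None of the genes in these 3 lists had an unadjusted p below 0.05. With slide as a block 1 did, ENO2, which was chosen for mention after its value was seen.

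In the gluconeogenesis list, 5 of 6 genes were higher in REST (median 0.21). FBP2, the muscle form of fructose-1,6-bisphosphatase, opposes phosphofructokinase above the aldolase step. Its level ranged from -3.37 to -1.02 in CONT (median -1.88) and from -1.20 to 3.80 in REST (median -0.06). A total of 5 REST cows exceeded the highest CONT cow, and the highest levels were in cow 0049 (3.80) and cow 1015 (2.09), which had the lowest levels of LDHA (0.11 and 0.54). The difference was 2.78 ± 0.78 on the log2 scale, a 6.85-fold higher level (95% confidence interval 2.14 to 22.0), with an unadjusted p of 0.00353 and an adjusted p of 1.00 (limma). The exact permutation test for this probe gave p = 0.00433. Without cow 0049 the difference was 2.16 on the log2 scale. Its signal was well above background in 5 of the CONT and all 6 REST cows. The second FBP2 probe was well above background in 1 CONT cow and 5 REST cows, and no fold change is given for it. The difference of the first probe was 1.36 on slide 1, 2.94 on slide 2 and 1.69 on slide 3, and 1.97 with slide as a block. FBP2 thus did not pass the threshold over all probes, although its direction was the same on the 3 slides. FBP1, the liver form, had a difference of 0.40 ± 0.47, and PCK2 0.23 ± 0.39.

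Of 11 genes of the side branches (pentose phosphate, glycerol phosphate, glycogen and serine), 7 were higher in REST and 4 lower (median 0.09). GPD2, the mitochondrial glycerol-3-phosphate dehydrogenase, which passes electrons of cytosolic NADH to the respiratory chain, ranged from -2.02 to -1.41 in CONT (median -1.51) and from -1.62 to -0.48 in REST (median -1.02). A total of 4 REST cows exceeded the highest CONT cow, and the difference was 0.50 ± 0.20 (limma, unadjusted p = 0.0284, adjusted p = 1.00). The second GPD2 probe was well above background on 1 array only and gives no fold change. With slide as a block the difference was 0.46 and no longer below 0.05 without adjustment. PHGDH, the first enzyme of serine synthesis, had 0.25 ± 0.28. In the hypoxia response list, 7 of 14 genes were higher and 7 lower, with 0.39 ± 0.32 for EPAS1 and -0.26 ± 0.22 for P4HA1.

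The same lists were then set against LDHA over the cows, with the test over 8999 genes described above. In that test 10.6% of all genes passed with a positive and 4.73% with a negative sign. In upper glycolysis, HK1 (r = 0.87, permutation test, adjusted p = 0.0139), the platelet phosphofructokinase PFKP (r = 0.85, 0.00760) and SLC2A3 (r = 0.77, 0.0328) passed, 3 of 8 genes. SLC2A1, the main glucose transporter of the lactating gland, had r = -0.64 (permutation test, adjusted p = 0.104), and the muscle phosphofructokinase PFKM r = -0.51 (0.203). SLC16A3 had r = 0.91 (permutation test, adjusted p = 0.00519), whereas SLC16A1, a transporter that can import lactate, had r = -0.77 (0.0376). Both subunits of the mitochondrial pyruvate carrier were negative (MPC1, r = -0.75, adjusted permutation p = 0.0445, and MPC2, r = -0.79, adjusted permutation p = 0.0261), as was pyruvate carboxylase (PC, r = -0.76, adjusted permutation p = 0.0411). In the hypoxia list, 0 of 11 genes were positive and past the threshold, and EGLN1, ADM and PDK1 were negative (r = -0.76, -0.74 and -0.76, adjusted permutation p = 0.0377, 0.0433 and 0.0402). Apart from PFKP and SLC16A3, whose rho had adjusted permutation p of 0.0200 and 0.0456, none of the genes named in this paragraph passed by rho. Without cows 0049 and 1015, r was 0.83 for SLC16A3, 0.81 for PFKP, 0.67 for HK1, 0.60 for SLC2A3 and -0.71 for MPC2. When brightness was removed, PFKP (r = 0.86, adjusted permutation p = 0.0305), SLC16A3 (r = 0.84, 0.0360) and PDK1 (r = -0.82, 0.0499) passed. HK1, SLC2A3, SLC16A1, MPC1, MPC2, PC, EGLN1 and ADM did not, with adjusted permutation p from 0.0626 for SLC2A3 to 0.335 for MPC1. When slide means were removed, PFKP (0.0475) and SLC16A3 (0.0489) were the only genes named in this paragraph with an adjusted permutation p below 0.05.

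Some markers of other cell types also went with LDHA, in the test where 10.6% of all genes passed with a positive and 4.73% with a negative sign. No gene passed in the lists of endothelium (5 genes, median r -0.26), erythrocyte (3, -0.61), skeletal muscle (3, -0.40) and adipocyte (1, -0.37). Of 6 neutrophil markers, 3 passed with a positive sign, namely S100A9 (r = 0.90, permutation test, adjusted p = 0.00760), S100A8 (r = 0.85, 0.0127) and S100A12 (r = 0.78, 0.0235), and the median r of the list was 0.72, against 0.0046 over all genes. S100A9 ranged from -2.19 in cow 0049 to 3.88 in cow 1058. CXCR2, the interleukin-8 receptor of neutrophils, had r = -0.41 (permutation test, adjusted p = 0.337). Of 6 macrophage markers, CSF1R (r = 0.87), AIF1 (r = 0.86) and CD68 (r = 0.78) were positive and MSR1 (r = -0.87) negative past the threshold. Among epithelial markers, the keratins KRT8 (r = 0.76) and KRT18 (r = 0.74) passed. Only 3 of the 9 genes of this list had a positive r. ELF5 (r = -0.72, permutation test, adjusted p = 0.0538) and LALBA (r = -0.65, 0.0894) were negative and did not pass. Before scaling, LALBA lay between 16.86 and 19.18 on the log2 scale, and its scaled level had r = -0.72 with the log2 of the 75th percentile. With brightness removed, r of LALBA with LDHA was -0.28. The caseins CSN1S1 (r = -0.81) and CSN3 (r = -0.80) are given as values only, since their signal was near the top of the scale. Before scaling, CSN1S1 lay between 18.43 and 19.02 on the log2 scale, with 1 saturated array, and CSN3 between 18.68 and 19.26, while the log2 of the 75th percentile varied over 1.61. Their scaled levels had r = -0.95 and -0.96 with that percentile over the arrays. With brightness removed, neither passed (CSN1S1, r = -0.63, adjusted permutation p = 0.206, and CSN3, r = -0.59, adjusted permutation p = 0.244). With quantile normalization r was 0.02 for CSN3 and -0.60 for CSN1S1. Of 6 fibroblast markers, PDGFRA (r = 0.89), COL3A1 (r = 0.76) and COL1A2 (r = 0.75) passed. In the myoepithelium list 1 of 5 genes passed, KRT5 (r = 0.77, permutation test, adjusted p = 0.0387). In the lymphocyte list 1 of 6 passed, with a negative sign, CD2 (r = -0.74, permutation test, adjusted p = 0.0479). The signs in this list were mixed, with 3 of 6 positive and a median of -0.27. CD3E (r = 0.72, permutation test, adjusted p = 0.0525) and CD8A (r = 0.65, 0.0811) were positive and did not pass. By rho, PDGFRA (rho = 0.94, adjusted permutation p = 0.0180) was the only gene named in this paragraph that passed, with adjusted permutation p of 0.0668 for S100A9, 0.0638 for S100A8, 0.0785 for MSR1, 0.0838 for CSF1R and 0.190 for CSN1S1. Without cows 0049 and 1015, the list medians of r were 0.53 for neutrophils, 0.53 for macrophages and 0.26 for fibroblasts, and 0.80 for the members. With brightness removed they were 0.65, 0.63, 0.28 and 0.82. The median of the mammary epithelium list was -0.65, and it was -0.46 without the same cows, -0.28 with brightness removed and 0.02 with quantile normalization. This list holds CSN1S1, CSN3 and PAEP. PAEP was also near the top of the scale, between 18.72 and 18.96 before scaling, with 1 saturated array. Its scaled level had r = -0.99 with the log2 of the 75th percentile. The list median is therefore given as a value only. Of the marker genes named in this paragraph, S100A9 (adjusted permutation p = 0.0447) and PDGFRA (0.0370) passed with brightness removed, and S100A9 (0.0475) with slide means removed. The part of cell composition and of array brightness in the covariation of the members was not tested.

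**Figure D5:**
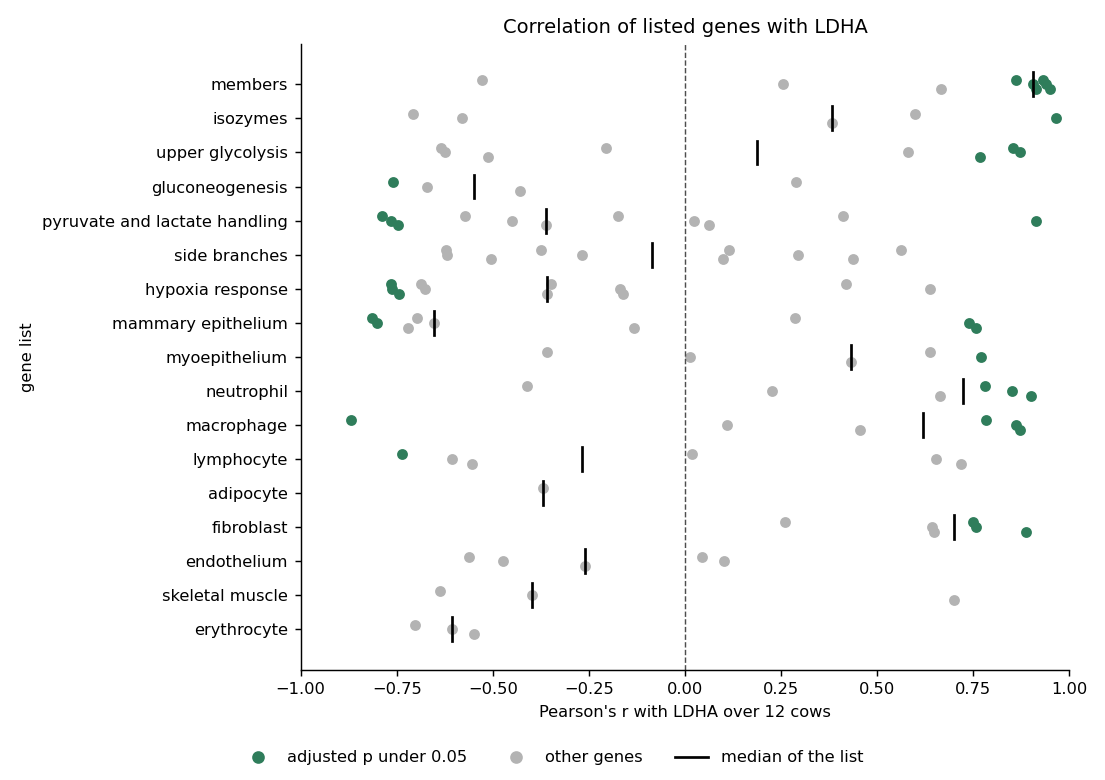
Pearson's r with LDHA over the 12 cows (x axis) for each gene of the members, of the 6 pathway lists and of the 10 marker lists (y axis), for genes well above background on all arrays. Green points have an adjusted permutation p below 0.05, and black lines are list medians, which are 0.91 for the members, 0.72 for neutrophil and -0.65 for mammary epithelium markers (-0.28 with brightness removed). The mammary epithelium list includes CSN1S1, CSN3 and PAEP, whose signal was near the top of the scale, so its median is a value only.

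Between the diets, no neutrophil or macrophage marker passed the adjusted threshold. The neutrophil list had a median difference of 0.21, with 4 of 6 genes higher in REST and 0 with an unadjusted p below 0.05, and the macrophage list 0.22 with 4 of 6 higher and 0 below 0.05 (0.31 and 1 below 0.05 with slide as a block). The summed level of a list is the log2 of the sum of the unlogged levels of its genes, so that bright probes weigh most. For the neutrophil list it ranged from 4.32 to 7.44 in CONT and from 2.72 to 7.61 in REST, where the lowest cow was 0049. Fibroblast markers had a median of -0.63, with 5 of 6 genes lower and 3 of them below 0.05 without adjustment (limma). The median was -0.35 and 1 gene was below 0.05 with slide as a block. Over all genes tested, 43.3% were higher in REST and 2.64% had an unadjusted p below 0.05. Of the endothelial markers, 5 of 5 were higher in REST (median 0.50), with 1 below 0.05, and of the lymphocyte markers 4 of 7 (median 0.13), with 2 below 0.05 and 1 with slide as a block. The summed level of the fibroblast list ranged from 5.63 to 6.06 in CONT and from 4.52 to 6.13 in REST, where the lowest cow was again 0049. All 18 measured markers of the neutrophil, macrophage and fibroblast lists were well above background on every array. The neutrophil marker CSF3R was not matched to a probe.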

How the data were processed

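Mammary RNA (100 ng per cow) of 6 CONT and 6 REST cows was labeled with Cy3 and hybridized to Agilent arrays, with groups taken from the sample labels. Deposited was the intensity of every spot, as exported by the authors from Feature Extraction, corrected for background and without normalization between arrays. Control spots and outlier-marked spots were left out, and log2 intensities minus the 75th percentile of the array were averaged per probe (43653 probes). Feature Extraction called 57.6 to 78.1% of the probes well above background on an array. Probes were named by matching accessions, without version, to a RefSeq table (26832 probes, 12639 genes). That table belongs to another assembly than the array annotation, so positions and sequences are left out. The diets were compared with limma 3.58.1 (R 4.3.3), two-sided, with Benjamini-Hochberg adjustment and a threshold of 0.05. The Westfall-Young adjustment of the study's methods, which refits the model of all probes over other splits of the cows, was not computed. P-values measure the spread between cows.

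The named genes are the members, and in each pathway list those with an unadjusted p below 0.05 and the 2 with the largest difference among genes well above background on all arrays. Genes named for their correlation with LDHA were chosen after their values were seen. Members and lists were chosen with earlier results of these data known. HK2, HK3, G6PC, PGM2, CA9, CSN2, CSF3R, CD79B and ADIPOQ could not be matched. Medians of the other marker lists were, for the difference between REST and CONT, -0.18 for myoepithelium, 0.19 for mammary epithelium, 0.13 for lymphocyte, 0.25 for adipocyte, 0.50 for endothelium, -0.17 for skeletal muscle and 0.12 for erythrocyte. Permutations for values with group or slide means removed were made within groups or slides. The model and the correlation test were tested on simulated data. Alternatives were quantile normalization, normexp correction (offset 50), the authors' matrix of intensities, outlier spots kept, slide as a block, a filter on dim probes, an intensity trend, saturated probes left out, the mean over the probes of a gene, and each cow left out. Figures were drawn with matplotlib 3.10.9.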

Additional observations from a re-analysis of the deposited data

How the results depend on the processing

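None of the 10 members passed the threshold under any of the 21 alternatives. The median difference of the members was -0.18 to 0.05 when a cow was left out. The number of members higher in REST was 3, but 7 with slide as a block, and 1 to 6 when a cow was left out. The sign of single differences changed in 27 of 180 refits, and the cause was not tested. With slide as a block, TPI1 was 0.16, GAPDH 0.046, PGK1 0.0029 and PKM 0.15. With quantile normalization ALDOA was -0.030 and PKM 0.013, and PKM was 0.012 as the mean of its probes. When a cow was left out, GPI was -0.051 to 0.15, ALDOA -0.080 to 0.082, TPI1 -0.19 to 0.16, GAPDH -0.26 to 0.065, PGK1 -0.30 to 0.026, PKM -0.12 to 0.21, LDHB -0.061 to 0.22, LDHA -0.42 to -0.018, ENO1 -0.34 to -0.076 and PGAM1 -0.23 to -0.095, and the last 3 were nearest 0 without cow 0049. LDHA minus LDHB was -0.62 to 0.010, and 0.010 without REST cow 0049. The number of members correlated with LDHA was 4 to 8 with other processing, 0 without cows 0049 and 1015, and 2 to 7 when a cow was left out, with 2 without cow 0049. The share of all genes with a positive call moved as well, from 10.6% to 12.3% with quantile normalization, 7.82% with normexp, 6.57% with group means removed, 2.01% with slide means removed, 1.7% with brightness removed and 0% without both cows, and it was 0.60% (without cow 0049) to 11.02% when a cow was left out. These alternatives for the correlation, for FBP2 (1.97 to 3.16, and 2.16 without cow 0049) and for GPD2 (0.38 to 0.61) were chosen after seeing the data. With slide as a block, the genes with an unadjusted p below 0.05 were 1 in place of 0 among the isozymes and 0 in place of 1 among the side branches. No paired analysis was possible because the groups hold different cows and the labels give no number that pairs them. With 6 arrays per group, a difference whose interval left out 0 could still miss the adjusted threshold, as FBP2 did. The smallest difference that could be detected was not measured.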
